A study of Mus musculus with 6 samples.

Results

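The genes described here encode the matrix metalloproteinases (Mmp), the membrane-anchored ADAM proteins, the secreted ADAMTS proteinases and the tissue inhibitors of metalloproteinases (Timp). They were taken by their symbols from a bulk RNA-seq count table of cells other than cardiomyocytes (non-CMs), sorted from adult mouse hearts. The families were chosen with earlier results of these data known. Of 24062 symbols in the table, 79 carried a name of these families, and 49 of those had at least 10 counts in at least 3 libraries: 16 of 23 Mmp, 14 of 33 Adam, 15 of 19 Adamts and all 4 Timp genes. Of the 30 below that minimum, 18 had no count in any library.

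Cells with the red reporter tdTomato (Tw2+) were compared with cells that lacked it (Tw2-), in 3 libraries each. All mice carried Tw2-CreERT2, a tamoxifen-inducible Cre recombinase driven from Twist2, and R26-tdTO, a reporter that stays on once recombined. Both populations came from tamoxifen-treated animals dosed at 8 weeks, and hearts were dissociated 10 days after dosing began, at a recorded age of 9 weeks. A Tw2+ cell therefore expressed the driver during dosing or descended from such a cell, and Tw2- holds every other sorted cell, including any that escaped recombination. Sorting used tdTomato and the mitochondrial dye Mitoview633 after enrichment of non-CMs. The labels speak of a pool of cardiac cells, and how many hearts went into each library is not stated there. Each group has a library numbered 2, a library numbered 3 and 1 without a number in the table, called unnumbered. Values by library are given in that order.

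Total counts lay between 11746696 and 13280522 in Tw2+ libraries and between 11767130 and 16447098 in Tw2- libraries. Twist2, the driver gene, averaged 6.93 ± 0.421 CPM (counts scaled to a common library size, with TMM factors) in Tw2+ and 3.50 ± 1.48 CPM in Tw2- (SD, n = 3 each), a difference that did not pass edgeR's quasi-likelihood test (log2 fold change 1.00, adjusted p = 0.0738) but passed in DESeq2 (1.00, adjusted p = 0.0333). Summed over 13 fibroblast markers, levels were 62978 to 75294 CPM in Tw2+ and 38200 to 56717 CPM in Tw2-. Most of each sum was Gsn, at 35563 to 45189 CPM in Tw2+ and 22362 to 32955 CPM in Tw2-. Gsn did not pass edgeR's test (log2 fold change 0.51, adjusted p = 0.315). Of the 13 markers, 2 passed that test as higher in Tw2+, and Col3a1 was fitted below 0 (-0.18). For 14 macrophage and monocyte markers the sums were 141 to 334 CPM in Tw2+ and 2888 to 6252 CPM in Tw2-. For the 5 granulocyte markers in the table they were 1.11 to 1.30 CPM in Tw2+ and 136 to 295 CPM in Tw2-, with Retnlg and Cxcr2 at 0 counts in all Tw2+ libraries. For 14 vascular endothelial markers they were 768 to 1734 CPM in Tw2+ and 1432 to 4150 CPM in Tw2-, with Tw2+ 3 the highest Tw2+ library and the unnumbered Tw2- library the lowest Tw2- library. Cardiomyocyte transcripts were present in both sorted fractions, at 159 to 516 CPM in Tw2+ and 842 to 1571 CPM in Tw2- over 14 markers. In bulk samples of this kind, fewer cells of a type and less RNA per cell cannot be told apart.

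Metalloproteinases cut proteins with a zinc ion held in the active site. MMPs are made as inactive precursors and degrade collagens, elastin and other matrix proteins once activated, ADAMs shed growth factors, cytokines and receptors from the cell surface, and ADAMTS enzymes trim proteoglycans, procollagens and microfibril proteins. TIMPs bind the active sites of MMPs and block them. In the heart, fibroblasts and endothelial cells make several of these proteins, and infiltrating leukocytes bring others of their own.

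Of the 48 members that entered the test across all 13180 genes, 13 were called, that is, had an adjusted p under 0.05 in edgeR's quasi-likelihood test, or 27.1%, where 18.2% of all tested genes did. Higher in Tw2+ were 5 members (7.41% of all tested genes): the inhibitor Timp1, the ADAMTS genes Adamts8, Adamts6 and Adamts15, and Mmp23. Lower were 8 members (10.8% of all tested genes): Mmp8, Mmp12, Mmp13, Mmp9, Mmp25, Adam8, Adam33 and Adam15. No ADAM gene was called higher, with 0 also at an unadjusted p under 0.05 and in DESeq2, and no ADAMTS gene lower, again with 0 by both. An unadjusted p under 0.05 was reached by 21 of the 48. The share of all tested genes that reached it was not counted, so this number cannot be read as particular to the members. The CPM values of the groups did not overlap for 20 of the 48 members (37.4% of all tested genes), with Tw2+ above Tw2- for 12 (18.2% of all tested genes) and below for 8 (19.2% of all tested genes). The median log2 fold change of the tested members was 0.23, and that of all tested genes was 0.0019. Of all calls, 59.2% were lower in Tw2+ on the TMM scale, against 80.9% with plain library sizes, where the median of all genes moved to -0.28, and 97.2% with scaling to the fibroblast markers, where it moved to -0.66. Mmp8, Mmp12 and Mmp25 met the count minimum through Tw2- libraries alone, so a difference in these was built into their selection. The remaining reported gene, Adam30, had 9, 11 and 27 counts in the Tw2+ libraries and 10, 9 and 7 counts in the Tw2- libraries, too few to enter the test.

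**Figure D1:**
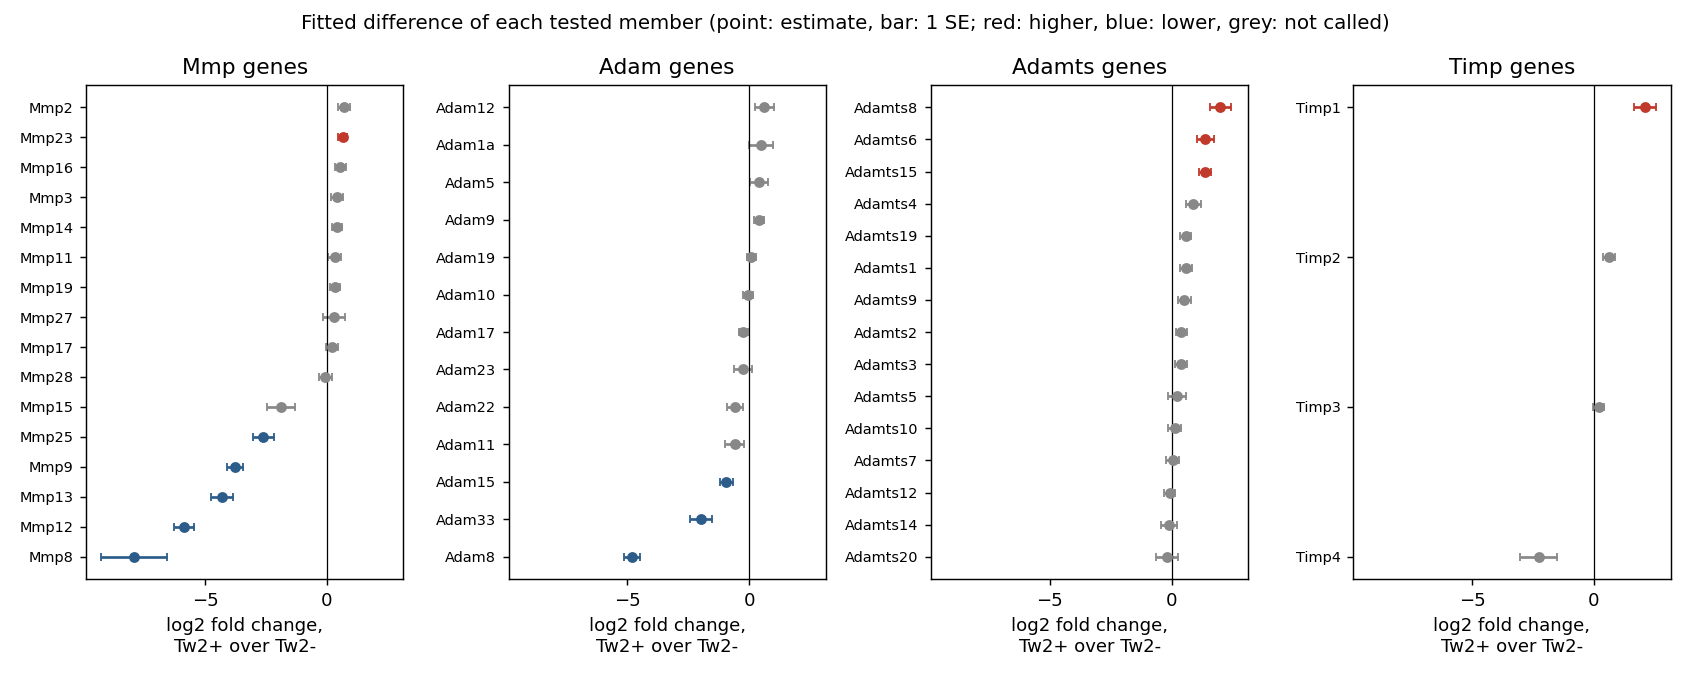
Log2 fold change of Tw2+ over Tw2- for each of the 48 tested members, in a panel per family (x axis: log2 fold change; points: estimates; bars: 1 SE; red, higher; blue, lower; grey, not called). The 8 lower calls reach -7.92 (Mmp8), while the 5 higher calls lie between 0.65 (Mmp23) and 2.10 (Timp1).

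By level per transcript length, 3 genes led in both populations: Mmp2, Timp2 and Adamts1. Mmp2, the gelatinase of connective tissue cells, stood at 599, 484 and 518 CPM per kb of exonic length in the Tw2+ libraries, and at 260, 334 and 385 CPM per kb in the Tw2- libraries. It made up 75.6% to 79.9% of the summed per-length level of the reported Mmp genes in Tw2+ and 64.0% to 71.8% in Tw2-. Timp2, which inhibits MMPs and also helps membrane-bound Mmp14 activate Mmp2, averaged 469 CPM per kb in Tw2+ and 307 CPM per kb in Tw2-. Adamts1, a versican-cleaving proteinase, averaged 435 CPM per kb in Tw2+ and 291 CPM per kb in Tw2-, and held 60.5% to 68.9% of the reported Adamts level in Tw2+ and 59.8% to 70.5% in Tw2-. The ranges of these 3 genes across libraries overlapped in both populations. Timp3 came next at 183 CPM per kb in Tw2+ and 160 CPM per kb in Tw2-. Timp1 had rank 5 at 100.2 CPM per kb in Tw2+ and rank 13 at 23.4 CPM per kb in Tw2-. The reported members together took 0.860% to 1.05% of the counts of a Tw2+ library and 0.846% to 0.956% of those of a Tw2- library, ranges that overlap.

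**Figure D2:**
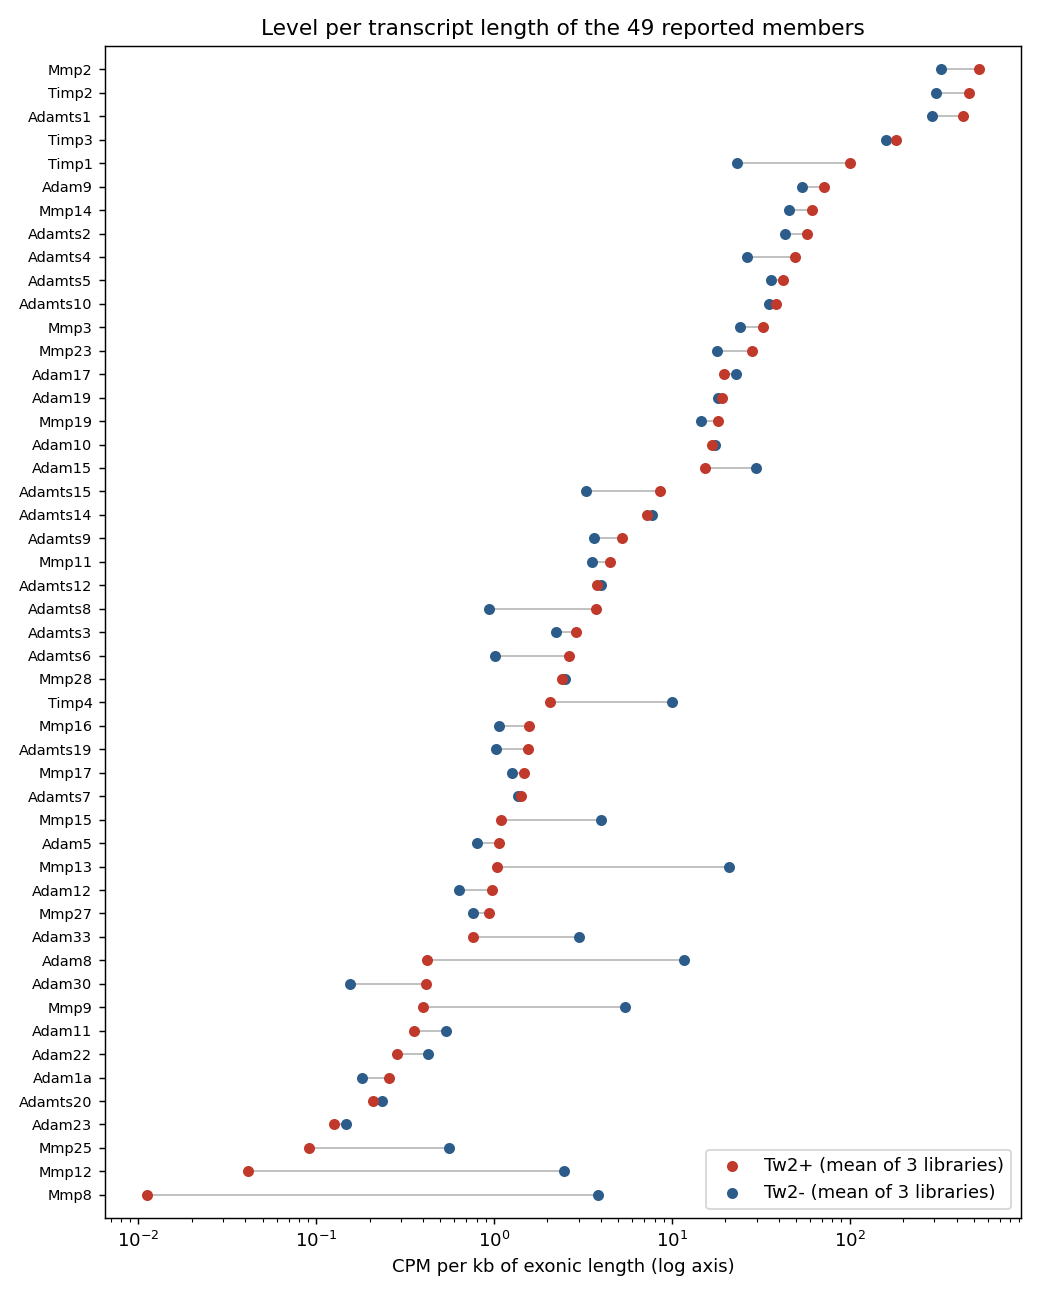
Mean level per transcript length of the 49 reported members (x axis: CPM per kb of exonic length, log axis; red, Tw2+; blue, Tw2-; each point is the mean of 3 libraries; genes ordered by the Tw2+ level). Mmp2, Timp2 and Adamts1 stand at the top in both populations, and Mmp8, Mmp12 and Mmp25 at the bottom in Tw2+.

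Among the inhibitors, Timp1 rose and Timp2, Timp3 and Timp4 did not pass the test. Timp1, an inducible inhibitor of most soluble MMPs, had 103, 38.6 and 125 CPM in the Tw2+ libraries, against 31.8, 15.0 and 15.6 CPM in the Tw2- libraries. Every Tw2+ library lay above every Tw2- library, with Tw2+ 3 closest to Tw2-. The gene was 4.27-fold higher in Tw2+ (log2 fold change 2.10 with an SE of 0.46, adjusted p = 0.0173 in edgeR). It no longer passed without Tw2+ 2 (log2 1.99, adjusted p = 0.0517), Tw2- 3 (1.83, adjusted p = 0.0883) or the unnumbered Tw2- library (1.86, adjusted p = 0.0622), nor when libraries were scaled to the 13 fibroblast markers (1.30, adjusted p = 0.0709). Timp1 lies on chromosome X at 20870166 to 20874735 of GRCm38, on the + strand, inside the span of Syn1 on the opposite strand.

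Timp2 had 2107, 1730 and 1644 CPM in the Tw2+ libraries, and 1016, 1171 and 1396 CPM in the Tw2- libraries. The groups did not overlap, and the log2 fold change of 0.61 (SE 0.24) missed the threshold (adjusted p = 0.0995) but passed in DESeq2 (0.62, adjusted p = 0.0193). Timp3, which binds matrix and also inhibits ADAM and ADAMTS enzymes, had 1672, 1286 and 1522 CPM in the Tw2+ libraries and 1386, 1122 and 1401 CPM in the Tw2- libraries, with overlapping groups (log2 0.20, adjusted p = 0.558). The antisense-strand gene Syn3 overlaps 21.3% of its exonic length, and their reads cannot be told apart, as it is not known whether counting used strand. Timp4, a TIMP known from the heart, had 5.70, 27.6 and 3.32 CPM in the Tw2+ libraries, against 83.1, 71.9 and 22.8 CPM in the Tw2- libraries. Tw2+ 3 lay above the unnumbered Tw2- library, so the groups overlapped, and the log2 fold change of -2.27 (SE 0.75) did not pass (adjusted p = 0.0662). Without Tw2+ 3, a fit that called 42.1% of all tested genes, it was -3.70 (adjusted p = 0.00167). With the replicate number as a block on all 6 libraries, which assumes that the unnumbered libraries form a pair, it was -2.62 (adjusted p = 0.000153). The same block called Mmp15 (-1.92, adjusted p = 0.000197), Adamts4 (0.87, adjusted p = 0.00358), Mmp2 (0.72, adjusted p = 0.0445) and Twist2 (1.06, adjusted p = 0.0231), and 32.3% of all tested genes.

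Among the MMPs, 5 fell: 2 interstitial collagenases, a gelatinase, a metalloelastase and a membrane-anchored enzyme. Mmp13, an interstitial collagenase, had 4.06, 2.60 and 1.71 CPM in the Tw2+ libraries, against 88.5, 44.0 and 36.1 CPM in the Tw2- libraries (log2 fold change -4.32 with an SE of 0.45, adjusted p = 0.000382 in edgeR). Mmp12, the macrophage metalloelastase, had 0.432, 0.163 and 0.302 CPM in the Tw2+ libraries and 19.3, 14.1 and 20.1 CPM in the Tw2- libraries (log2 -5.86 with an SE of 0.40, adjusted p = 0.000127). Both genes were low in every Tw2+ library, and the groups were far apart in both.

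Mmp8, the neutrophil collagenase, gave 0, 1 and 0 counts in the Tw2+ libraries against 41, 408 and 44 counts in the Tw2- libraries. With a single Tw2+ count the level in Tw2- was 348-fold that in Tw2+, with a 95% interval for counting error of 62.1 to 13761, and most of the Tw2- counts came from Tw2- 3 (fitted log2 -7.92 with an SE of 1.37, adjusted p = 0.00594, a fit that depends on the prior count). That library also had the highest sum of granulocyte markers, 295 CPM, against 136 and 149 CPM in Tw2- 2 and the unnumbered Tw2- library. The macrophage and monocyte sum was highest there too, at 6252 CPM, against 5229 and 2888 CPM. Mmp9, the gelatinase stored in neutrophils and also made by macrophages, had 1.56, 1.38 and 1.31 CPM in the Tw2+ libraries and 17.5, 25.8 and 14.3 CPM in the Tw2- libraries, with Tw2- 3 again the highest (log2 -3.75 with an SE of 0.33, adjusted p = 0.000206). Mmp25, a lipid-anchored MMP of neutrophils, had 0.346, 0.407 and 0.705 CPM in the Tw2+ libraries and 3.56, 2.47 and 2.83 CPM in the Tw2- libraries (log2 -2.60 with an SE of 0.43, adjusted p = 0.00452). For Mmp25, Tw2- 3 was the lowest Tw2- library. Mmp9 and Mmp13 each passed in all 6 leave-one-out fits. Mmp8, Mmp12 and Mmp25 did too, but they met the count minimum through Tw2- libraries alone, so their passing adds no support. All 14 macrophage and monocyte markers and all 5 granulocyte markers tested were also called lower in Tw2+, and their part in these differences was not tested.

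Mmp13, Mmp12 and Mmp8 belong to a cluster, singled out after their values were seen, of 10 Mmp genes. It spans 427 kb of chromosome 9, from 7272514 to 7699585 of GRCm38. Called and uncalled genes lie side by side within it. Mmp3, the stromelysin of fibroblasts, lies between Mmp12 and Mmp8 and had 71.5, 61.7 and 42.7 CPM in the Tw2+ libraries and 36.6, 43.3 and 51.5 CPM in the Tw2- libraries, with overlapping groups (log2 0.42 with an SE of 0.24, adjusted p = 0.231). Mmp27 follows Mmp8 and had a mean of 2.07 ± 0.603 CPM in Tw2+ cells and 1.69 ± 0.745 CPM in Tw2- cells (SD, n = 3 each; log2 0.30, adjusted p = 0.660). Mmp10 had 3 counts in Tw2+ and 1 in Tw2-, and Mmp1a, Mmp1b, Mmp20 and Mmp7 had 0 counts in all 6 libraries.

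**Figure D3:**
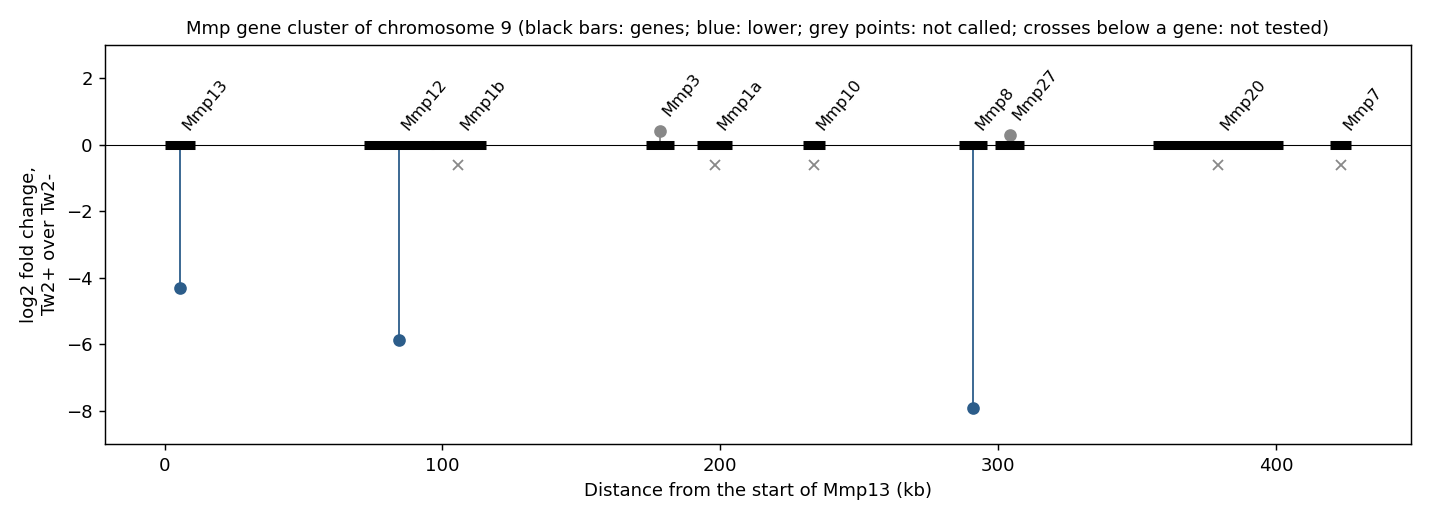
The Mmp cluster of chromosome 9 (x axis: distance in kb from the start of Mmp13; y axis: log2 fold change, Tw2+ over Tw2-; black bars, gene spans; blue points, lower; grey points, not called; crosses, not tested). Mmp13, Mmp12 and Mmp8 lie between -7.92 and -4.32, while Mmp3, between Mmp12 and Mmp8, lies at 0.42 and Mmp27, next to Mmp8, at 0.30.

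The start regions of 6 genes of this cluster are shown because matches to the same letters occur near genes whose transcripts differ in level. RefSeq (GRCm38.p6) start windows, from 250 bases before to 50 bases after a start, were at hand for 49 of the 79 members and for all 10 cluster genes. The letters TGAGTCA, the classical recognition site of AP-1 (dimers of Fos and Jun proteins), were found on either strand in 7 of the 10 cluster genes and in 5.95% of 27025 genes with a window. A core promoter element, the letters TATAAA, was found in 9 of the 10 and in 15.7% of all genes. The Sp1 box GGGCGG was found in 0 of the 10 and in 38.2% of all genes. Among 25 other reported members with a window, the AP-1 letters were found in 1, the core promoter element in 1 and the Sp1 box in 20. GAGGAAGT, a site of the myeloid ETS factor PU.1, was found in 3 of the 10 (Mmp12, Mmp8 and Mmp7), in 0 of the 25 and in 3.69% of all genes. Below, each run covers 100 bases before and 10 bases after the RefSeq start, 5′ to 3′ on the + strand, with the AP-1 and TATA letters, on either strand, in capitals, which do not overlap. They lie at chr9:7272414-7272523 (Mmp13), chr9:7347274-7347383 (the second of the Mmp12 starts), chr9:7445722-7445831 (Mmp3), chr9:7464041-7464150 (Mmp1a), chr9:7502242-7502351 (Mmp10) and chr9:7558329-7558438 (Mmp8).
Mmp13: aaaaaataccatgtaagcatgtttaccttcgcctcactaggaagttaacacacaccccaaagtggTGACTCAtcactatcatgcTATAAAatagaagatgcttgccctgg
Mmp12: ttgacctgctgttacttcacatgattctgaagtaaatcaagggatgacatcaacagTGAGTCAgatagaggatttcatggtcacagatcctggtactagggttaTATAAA
Mmp3: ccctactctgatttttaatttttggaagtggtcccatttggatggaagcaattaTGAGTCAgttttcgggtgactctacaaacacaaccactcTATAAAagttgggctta
Mmp1a: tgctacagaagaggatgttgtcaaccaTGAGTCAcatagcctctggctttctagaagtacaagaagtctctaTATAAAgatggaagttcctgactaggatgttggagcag
Mmp10: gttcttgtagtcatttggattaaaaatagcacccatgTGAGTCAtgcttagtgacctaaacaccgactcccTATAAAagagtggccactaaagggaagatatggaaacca
Mmp8: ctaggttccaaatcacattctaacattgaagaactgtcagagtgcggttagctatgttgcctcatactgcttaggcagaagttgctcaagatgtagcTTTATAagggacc
The AP-1 letters stand upstream of Mmp13, which fell, of Mmp3, which was not called, and of Mmp1a, which had no counts. The Mmp8 window holds the TATA letters on the other strand (TTTATA) and no AP-1 letters, and in Mmp12 the TATA letters lie after the start, while its other start window holds neither. A match is a description of these letters and not a measured site.

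The remaining MMPs were mostly those of connective tissue, and 1 of them rose. Mmp23, a short cell-bound MMP that lacks the usual haemopexin domain, had 69.5, 70.7 and 58.3 CPM in the Tw2+ libraries, against 36.1, 44.7 and 45.7 CPM in the Tw2- libraries. The groups were apart by a modest step of 1.57-fold (log2 0.65 with an SE of 0.19, adjusted p = 0.0444 in edgeR). This call was lost with any library left out except Tw2+ 3 (log2 0.51 to 0.74, adjusted p from 0.0674 to 0.169 in the other 5 fits, and 0.0308 without Tw2+ 3), and scaled to the fibroblast markers the log2 fold change was 0.0052 (adjusted p = 0.989). The Mmp23 call was also lost with plain library sizes, upper-quartile factors, no filter on low counts, and at least 50 counts in 3 libraries. The fibroblast markers themselves had a median log2 fold change of 0.58, with 2 of 13 called higher, and the part of fibroblast RNA in the higher members was not tested. Mmp2 had 2018, 1632 and 1748 CPM in the Tw2+ libraries and 877, 1125 and 1298 CPM in the Tw2- libraries. Its groups did not overlap, and its log2 fold change of 0.71 (SE 0.24, adjusted p = 0.0712) passed without Tw2+ 3 (0.78, adjusted p = 0.0370) and in DESeq2 (0.71, adjusted p = 0.00704).

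Of the membrane-type MMPs, only Mmp25 was called. Mmp14, the main membrane-type collagenase and activator of Mmp2, had 418, 363 and 312 CPM in the Tw2+ libraries and 232, 264 and 325 CPM in the Tw2- libraries, with overlapping groups (log2 0.41 with an SE of 0.21, adjusted p = 0.192). Mmp16, which also sits in the cell membrane, had a mean of 13.6 ± 1.51 CPM in Tw2+ cells and 9.23 ± 1.11 CPM in Tw2- cells (SD, n = 3 each), without overlap and without a call (log2 0.56, adjusted p = 0.118). Mmp15 had 5.01, 10.3 and 2.32 CPM in the Tw2+ libraries and 29.7, 26.5 and 8.56 CPM in the Tw2- libraries, where Tw2+ 3 exceeded the unnumbered Tw2- library (log2 -1.87 with an SE of 0.58, adjusted p = 0.0548). It passed without Tw2+ 3 (-2.54, adjusted p = 0.00778) or without the unnumbered Tw2- library (-2.28, adjusted p = 0.0313). Mmp19, a soluble MMP first described in vessels and inflamed joints, had a mean of 64.4 ± 10.4 CPM in Tw2+ cells and 51.4 ± 6.60 CPM in Tw2- cells (log2 0.33, adjusted p = 0.265), with the antisense-strand gene Tmem198b over 22.3% of its exonic length. Mmp11, Mmp17 and Mmp28 had log2 fold changes from -0.06 to 0.33 and none was called.

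Of the ADAMTS genes, Adamts15, Adamts8 and Adamts6 rose. On the TMM scale 12 of 15 were fitted above 0 (50.1% of all tested genes), and the family median was 0.40 (log2). When scaled to the fibroblast markers, 8 of those 12 were fitted below 0, and the median of all tested genes moved to -0.66. Adamts15, a proteinase of versican and aggrecan, had 68.9, 98.8 and 98.1 CPM in the Tw2+ libraries, against 25.0, 41.8 and 36.0 CPM in the Tw2- libraries. It was 2.59-fold higher (log2 1.37 with an SE of 0.25, adjusted p = 0.00726 in edgeR), passed in all 6 leave-one-out fits, and had a log2 fold change of 0.75 (adjusted p = 0.0722) when scaled to the fibroblast markers. Adamts8, described as an anti-angiogenic member of the family, had 14.4, 8.70 and 28.7 CPM in the Tw2+ libraries and 3.14, 4.19 and 5.58 CPM in the Tw2- libraries. The lowest Tw2+ library was thus above the highest Tw2- library, and the gene was 4.02-fold higher (log2 2.01 with an SE of 0.45, adjusted p = 0.0186). It did not pass without Tw2- 2 (1.78, adjusted p = 0.0736) or Tw2- 3 (1.93, adjusted p = 0.0869), and it was the only one of the 5 members called higher that passed with scaling to the fibroblast markers (1.36, adjusted p = 0.0360). Adamts15 and Adamts8 are neighbours on chromosome 9, at 30899155 to 30922452 on the - strand and at 30942562 to 30963838 on the + strand of GRCm38, 20.1 kb apart. The gene model Gm29724 on the opposite strand overlaps 10.6% of the exonic length of Adamts8.

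Adamts6, linked to fibrillin microfibrils, had 20.0, 11.8 and 30.1 CPM in the Tw2+ libraries and 8.32, 8.06 and 7.23 CPM in the Tw2- libraries (log2 fold change 1.39 with an SE of 0.34, adjusted p = 0.0261 in edgeR). Tw2+ 3 lay nearest to the narrow Tw2- range, and with scaling to the fibroblast markers the log2 fold change was 0.67 (adjusted p = 0.174). The call was kept only without Tw2+ 3 (1.67, adjusted p = 0.00144), and in the other 5 leave-one-out fits the log2 fold change was 1.02 to 1.42 at an adjusted p from 0.0718 to 0.109. The related Adamts10 had a mean of 317 ± 109.7 CPM in Tw2+ cells and 290 ± 52.0 CPM in Tw2- cells (SD, n = 3 each; adjusted p = 0.754).

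**Figure D4:**
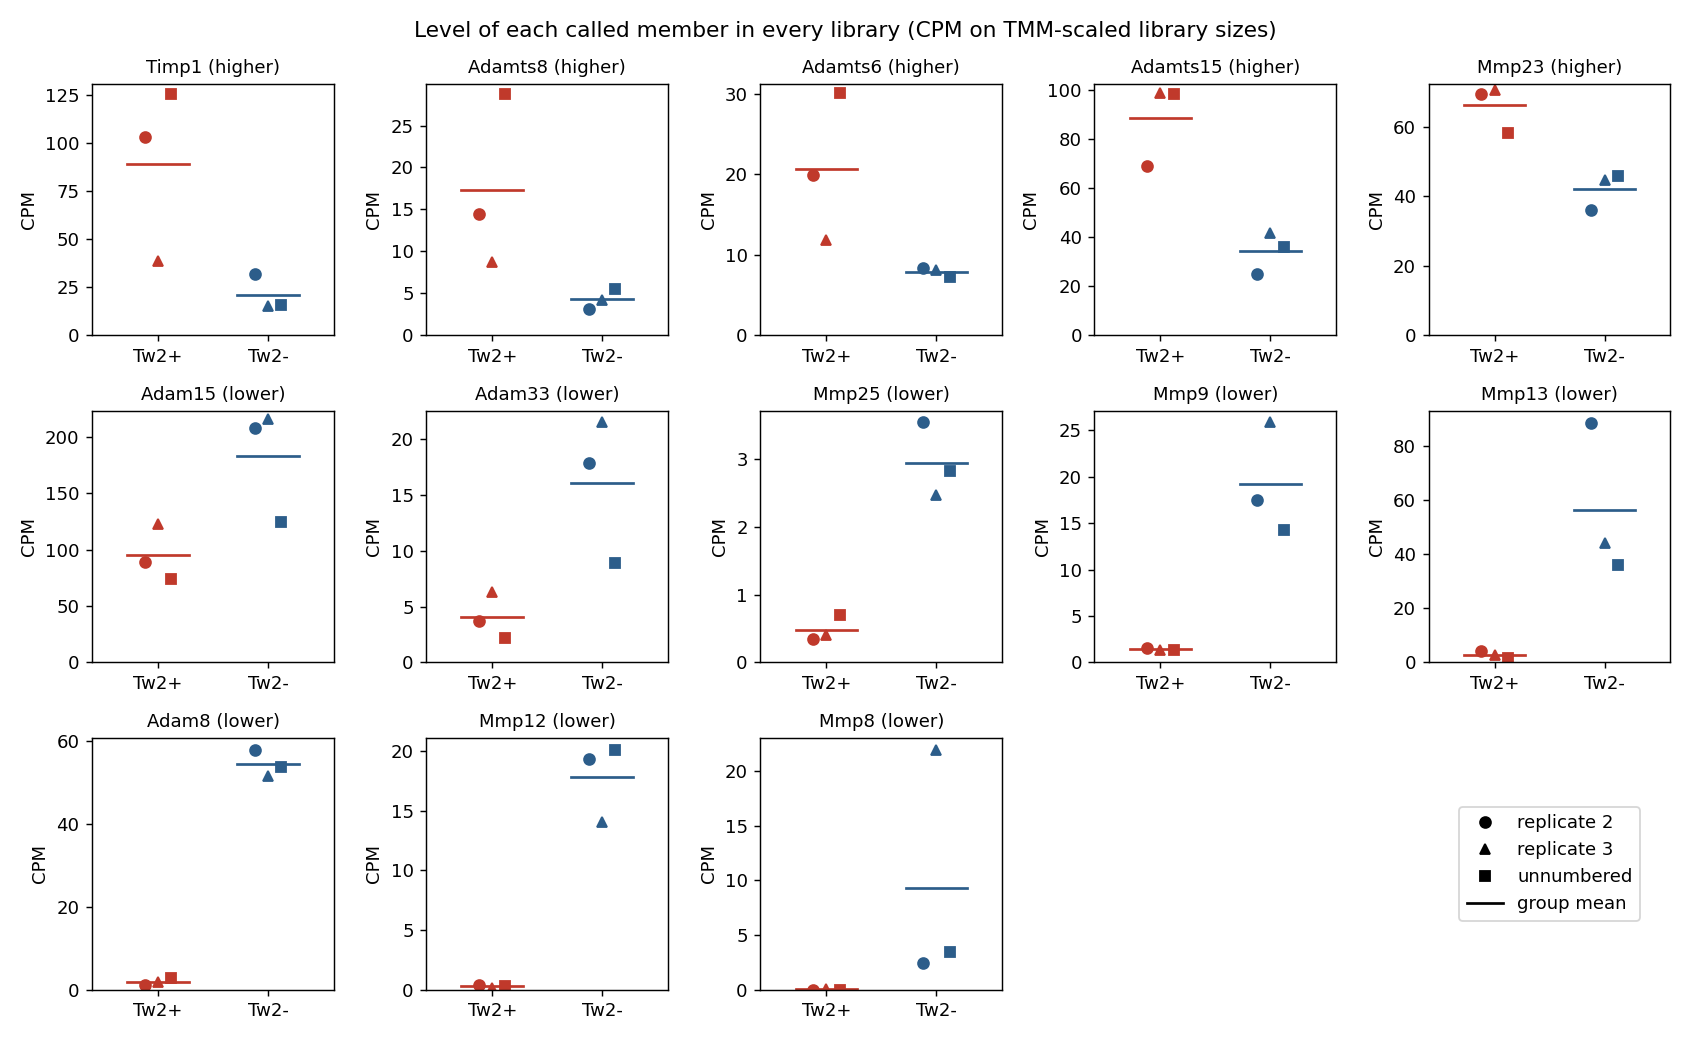
CPM of the 13 called members in every library (y axis: CPM on TMM-scaled sizes, from 0; circles, replicate 2; triangles, replicate 3; squares, the unnumbered library; lines, group means; Tw2+ in red, Tw2- in blue). The groups do not overlap in any panel; Tw2+ 3 is the lowest Tw2+ library for Timp1, Adamts8 and Adamts6, at 38.6, 8.70 and 11.8 CPM.

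The abundant proteoglycan-cleaving members did not pass. Adamts1 had 2721, 1955 and 2248 CPM in the Tw2+ libraries and 1755, 1309 and 1558 CPM in the Tw2- libraries, without overlap (log2 fold change 0.58 with an SE of 0.25, adjusted p = 0.125 in edgeR). Adamts4, a related aggrecanase, had 331, 170 and 209 CPM in the Tw2+ libraries and 164, 96.5 and 121 CPM in the Tw2- libraries, also without overlap (log2 0.90 with an SE of 0.30, adjusted p = 0.0647). It passed without Tw2+ 3 (1.09, adjusted p = 0.0125) and in DESeq2 (0.89, adjusted p = 0.0353). Adamts5, the other major aggrecanase, had 435, 629 and 302 CPM in the Tw2+ libraries and 210, 461 and 497 CPM in the Tw2- libraries, with wide overlap (log2 0.23, adjusted p = 0.683). Adamts9 overlapped as well (log2 0.52, adjusted p = 0.172) and passed without Tw2+ 3 (0.71, adjusted p = 0.0340), and Adamts20 was at -0.17 (adjusted p = 0.809). None of the 3 procollagen N-proteinases, which trim fibrillar procollagens, was called. Adamts2, the most abundant of these, had 587, 533 and 485 CPM in the Tw2+ libraries and 325, 381 and 507 CPM in the Tw2- libraries (log2 0.40, adjusted p = 0.226), and Adamts3 and Adamts14 were at 0.38 and -0.10. Adamts7 and Adamts12, which cleave cartilage oligomeric matrix protein, were at 0.05 and -0.08. Adamts19 was higher in each Tw2+ library, with 21.7 ± 1.24 CPM in Tw2+ and 14.5 ± 3.06 CPM in Tw2- (SD, n = 3 each), without a call (log2 0.59, adjusted p = 0.0978).

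Among the ADAMs, 3 fell. Adam8, a sheddase of leukocytes, had 1.12, 1.87 and 2.82 CPM in the Tw2+ libraries, against 57.9, 51.5 and 53.6 CPM in the Tw2- libraries. All Tw2- libraries lay within a narrow band, and the gene was 28.2-fold lower in Tw2+ (log2 fold change -4.82 with an SE of 0.33, adjusted p = 0.000127 in edgeR), passing in all 6 leave-one-out fits. The macrophage, monocyte and granulocyte markers given above were lower in Tw2+ too. Both sums were highest among Tw2- libraries in Tw2- 3, where Adam8 was lowest. Across the Tw2- libraries the macrophage and monocyte sum ran from 2888 to 6252 CPM and the granulocyte sum from 136 to 295 CPM. Adam8 ran from 51.5 to 57.9 CPM there. The part of macrophage, monocyte and granulocyte RNA in the Adam8 difference was not tested.

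Adam33, known from airway smooth muscle and mesenchyme, had 3.72, 6.34 and 2.22 CPM in the Tw2+ libraries and 17.9, 21.6 and 8.95 CPM in the Tw2- libraries (log2 -1.97 with an SE of 0.45, adjusted p = 0.0200 in edgeR). Adam15, an ADAM of endothelial and other cells, had 88.8, 123 and 73.8 CPM in the Tw2+ libraries and 208, 216 and 124 CPM in the Tw2- libraries (log2 -0.94 with an SE of 0.27, adjusted p = 0.0460). For both, Tw2+ 3 was the highest Tw2+ library and the unnumbered Tw2- library the lowest Tw2- library, and for Adam15 these stood at 123 and 124 CPM. Adam33 passed without Tw2+ 3 (-2.43, adjusted p = 0.00339) or the unnumbered Tw2- library (-2.30, adjusted p = 0.0139), and not without Tw2+ 2 (-1.90, adjusted p = 0.0747), the unnumbered Tw2+ library (-1.67, adjusted p = 0.0521), Tw2- 2 (-1.92, adjusted p = 0.0642) or Tw2- 3 (-1.76, adjusted p = 0.0890). Adam15 likewise passed without Tw2+ 3 (-1.16, adjusted p = 0.00853) or the unnumbered Tw2- library (-1.20, adjusted p = 0.0267), and with another library left out it was at -0.89 to -0.78 (adjusted p from 0.117 to 0.164). The Adam15 call was also lost with limma-voom (-0.92, adjusted p = 0.0522) and in edgeR with RLE factors (-0.94, adjusted p = 0.0548). An overlapping model on the opposite strand, 4731419I09Rik, covers 20.6% of the exonic length of Adam15.

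For Adam15, Adam33, Mmp15 and Timp4, the highest Tw2+ library and the lowest Tw2- library were the same as for the summed vascular endothelial markers. Those sums were 947, 1734 and 768 CPM in the Tw2+ libraries, and 4150, 3861 and 1432 CPM in the Tw2- libraries. The macrophage and monocyte sum had these extremes too, at 238, 334 and 141 CPM in Tw2+ and 5229, 6252 and 2888 CPM in Tw2-. The B cell, Schwann cell, and epicardial and mesothelial marker sums also had them. The highest Tw2- library was Tw2- 2 for the endothelial sum, Mmp15 and Timp4. It was Tw2- 3 for the macrophage and monocyte sum, Adam15 and Adam33. Of the 14 endothelial markers, 4 were called lower and 0 were at 0 counts throughout Tw2+. The part of RNA from any of these cell types in these differences was not tested.

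**Figure D5:**
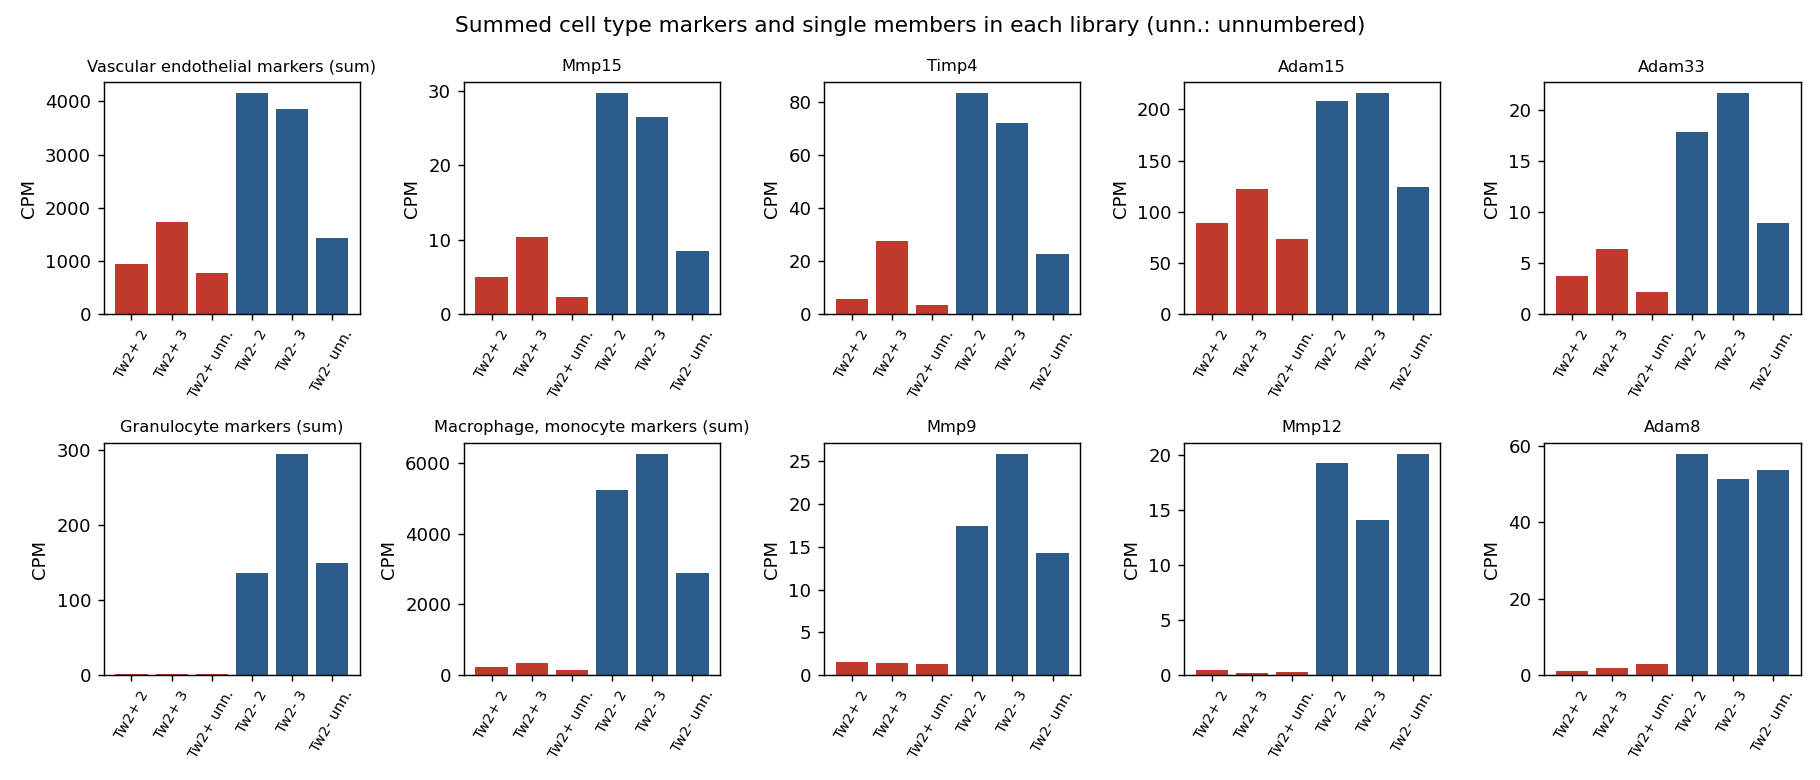
Summed CPM of marker lists (first column of the top row and first 2 panels of the bottom row) and CPM of single members in each library (y axes: CPM, from 0; red, Tw2+; blue, Tw2-). Mmp15, Timp4, Adam15 and Adam33 have their highest Tw2+ value in Tw2+ 3 and their lowest Tw2- value in the unnumbered library. The endothelial sum (1734 and 1432 CPM) and the macrophage sum (334 and 2888 CPM) do so too. Mmp9, Mmp12 and Adam8 are low in all Tw2+ libraries, as are the granulocyte and macrophage sums.

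The ubiquitous sheddases were not called. Adam9 had 312, 282 and 297 CPM in the Tw2+ libraries and 191, 212 and 268 CPM in the Tw2- libraries, without overlap (log2 fold change 0.41 with an SE of 0.20, adjusted p = 0.168 in edgeR), and made up 47.6% to 49.7% of the per-length level of the reported Adam genes in Tw2+ and 29.1% to 42.0% in Tw2-. Adam17, which releases TNF and EGF receptor ligands, had 154, 137 and 130 CPM in the Tw2+ libraries and 177, 153 and 165 CPM in the Tw2- libraries (log2 -0.23 with an SE of 0.17, adjusted p = 0.356). Adam10, the main sheddase of Notch receptors, had a mean of 82.4 ± 11.7 CPM in Tw2+ cells and 85.6 ± 12.2 CPM in Tw2- cells (SD, n = 3 each; log2 -0.05 with an SE of 0.19, adjusted p = 0.859). Adam19 and Adam12, linked to mesenchymal cells, were at 0.08 and 0.62 (adjusted p = 0.784 and 0.278). The ADAMs that lack a working active site, Adam11, Adam22 and Adam23, had log2 fold changes from -0.60 to -0.24, and none was called. Adam5 and Adam1a, known from testis, averaged 3.35 and 1.94 CPM in Tw2+ and 2.53 and 1.35 CPM in Tw2- (log2 0.41 and 0.49, neither called). A further gene model on the same strand covers 63.7% of the exonic length of Adam1a, so its counts are uncertain.

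Other genes of the pathway were read from 4 lists. Tfpi2, Ctsl, Tspan5, Frmd8 and Thbs2 are named because they were called, a choice made after their values were seen. Of 13 tested regulators and activators of MMPs, 4 rose and 1 fell (list median 0.60 on the log2 scale). Among all tested genes, 7.41% were called higher and 10.8% lower. Plat, the tissue plasminogen activator, rose to 621 CPM in Tw2+ cells, against 242 CPM in Tw2- cells (log2 fold change 1.36, adjusted p = 0.0149 in edgeR), while Plau, the urokinase-type activator, fell to 61.5 CPM in Tw2+, against 199 CPM in Tw2- (-1.69, SE 0.29, adjusted p = 0.00601). Tfpi2, a Kunitz inhibitor, and Ctsl, a lysosomal protease, also rose (2.29 and 0.85). Timp1 shared with Plat and Tfpi2 the order of the Tw2+ libraries, highest in the unnumbered one and lowest in Tw2+ 3. Adamts8, Adamts6, Thbs1, Tspan5 and the fibroblast marker Tcf21 had the same order, so it was not particular to these regulators. Plau passed in all 6 leave-one-out fits, Plat and Tfpi2 in 4 each and Ctsl in 1. Scaled to the fibroblast markers, Plat, Tfpi2 and Ctsl lost their calls, while Plau kept its call. The proprotein convertase Pcsk6 was not called (0.10, adjusted p = 0.853).

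Of 10 ADAM partners, 1 rose and 3 fell (list median -0.80 on the log2 scale), beside 7.41% higher and 10.8% lower among all tested genes. Rhbdf2 encodes an iRhom that carries Adam17 to the cell surface in leukocytes, and it fell to 12.3 CPM in Tw2+ cells, against 53.8 CPM in Tw2- cells (log2 fold change -2.12 with an SE of 0.41, adjusted p = 0.00997 in edgeR). Its relative Rhbdf1 stood at 154 CPM in Tw2+ cells and 119 CPM in Tw2- cells (0.37, adjusted p = 0.192). Tspan14, a tetraspanin partner of Adam10, fell (-1.70, SE 0.25, adjusted p = 0.00254), and Tspan5, another such partner, rose (0.85, SE 0.24, adjusted p = 0.0395). Frmd8, which stabilises iRhoms, fell (-1.13, adjusted p = 0.0485), and Pacs2, a sorting protein, was not called (-0.35, adjusted p = 0.164). Rhbdf2 and Tspan14 passed in all 6 leave-one-out fits, and Tspan5 and Frmd8 in 1 each. Scaled to the fibroblast markers, Tspan5 lost its call, while Rhbdf2, Tspan14 and Frmd8 kept theirs.

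None of 10 tested ADAMTS-like proteins, astacin proteinases and their enhancers was called (18.2% of all tested genes were). Of these, 1 had an unadjusted p under 0.05 and DESeq2 called 1 higher. The list had a median log2 fold change of 0.19, and its highest levels were those of Adamtsl2 (0.56, adjusted p = 0.153 in edgeR) and Pcolce (0.58, adjusted p = 0.147). Of 7 tested ADAMTS substrates and clearance factors, 2 rose and 1 fell (list median 0.48 on the log2 scale). The shares of all tested genes were 7.41% higher and 10.8% lower. Thbs1, thrombospondin 1, reached 34041, 15676 and 40650 CPM in the Tw2+ libraries and 8372, 4609 and 7167 CPM in the Tw2- libraries (log2 2.17 with an SE of 0.45, adjusted p = 0.0141), and Thbs2 was at 0.86 (adjusted p = 0.0220). Reln, which several ADAMTS enzymes cut, fell to 0.339 CPM in Tw2+, against 7.17 CPM in Tw2- (-4.33, SE 0.96, adjusted p = 0.0185). Lrp1, the receptor that clears many of these proteinases, was not called (-0.21, adjusted p = 0.587). Thbs1 passed in 5 of the 6 leave-one-out fits, Reln in 3 and Thbs2 in 2. Scaled to the fibroblast markers, Thbs2 lost its call, while Thbs1 and Reln kept theirs.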

How the data were processed

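RNA was total RNA from sorted cells. The authors deposited a table of raw read counts per gene symbol, whole numbers with no normalization. Per the submitters' processing notes, the tools included DESeq2 1.6.3 and TopHat2 2.0.0, and the build was GRCm38 (mm10). No role is stated for them, and the counter, its annotation and its strand setting are not given in the sources. From the deposited counts, genes were filtered with filterByExpr (minimum count 10), scaled by TMM and tested with edgeR 4.0.16 (quasi-likelihood test, Benjamini-Hochberg adjustment over 13180 genes, called at an adjusted p under 0.05) in R 4.3.3. Adjusted p-values are from edgeR unless DESeq2 1.42.0 or limma-voom is named. Fold changes are Tw2+ over Tw2-, and CPM use TMM-scaled library sizes. Levels per kb divide CPM by the exonic length in GENCODE M21 (GRCm38), which matched all 79 symbols. In these libraries 3 counts corresponded to 0.161 to 0.302 CPM, and intervals cover counting error only. The design text calls the libraries biological replicates, but p-values measure the spread between these 3 libraries a group, since their source animals are not given. Within a group, counts of any pair of libraries differed well beyond counting error (chi-square over its degrees of freedom, 25.3 or more). The text accounts for all reported members, with values by library for called members, Timp genes and the most abundant genes of each family. From each other list it names the 2 called genes with the smallest adjusted p and the 2 with the highest mean CPM, apart from exceptions it marks. Members and lists were chosen with earlier results of these data known. The test was checked on simulated data. Alternatives covered DESeq2, limma-voom (limma 3.58.1), other scalings, filters and thresholds, a replicate block and leaving libraries out. A gene of the regulator list is counted there but not reported here.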

Additional observations from a re-analysis of the deposited data

How the results depend on the processing

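On the TMM scale 5 members were called higher and 8 lower, with 976 higher and 1419 lower of all genes. With DESeq2 these were 8 and 9, with 1575 and 1827 of all genes. With plain library sizes they were 3 and 8, with 404 and 1716, and with scaling to the fibroblast markers 1 and 12, with 113 and 3894. With at least 50 counts in 3 libraries, 40 members entered the test, 4 higher and 5 lower, with 695 and 996 of 11005 genes. Of the called members, Mmp8 and Mmp25 left the test, and Mmp23 and Adam15 (adjusted p = 0.0507) missed the threshold. An adjusted p under 0.01 left 1 and 6 members, and 90 and 701 of all genes. Leaving out 1 library gave 1 to 8 members higher and 6 to 10 lower, and 81 to 2801 higher and 811 to 2906 lower of all genes, highest without Tw2+ 3. With Tw2+ 3 and the unnumbered Tw2- library both left out, 9 and 10 members were called, with 2565 and 3068 of all genes. The replicate block on the 4 numbered libraries gave 13 and 10 members, with 1300 and 2203 of all genes, against 2 and 8, with 115 and 1195, in the same libraries without it. On all 6 libraries, with the unnumbered ones taken as a pair, the block gave 7 and 10 members, with 1946 and 2311 of all genes. The fit without the block and that on all 6 libraries were added after seeing the data. Deviations from the group means correlated at 0.20 and 0.56 for libraries with the same number and at 0.24 for the unnumbered ones, and at -0.42 to 0.12 otherwise. Since 2 columns carry no number, the pairing is an assumption. No called member changed sign. Counts under 10 a library limit Mmp8, Mmp12 and Mmp25 in Tw2+. The cause of these differences was not tested.

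Log2 fold changes of uncalled genes that changed sign were as follows. With scaling to the fibroblast markers they were Mmp11 -0.30, Timp3 -0.49, Mmp19 -0.37, Adam19 -0.61, Adamts2 -0.23, Timp2 -0.035, Mmp14 -0.23, Adamts1 -0.12, Adamts5 -0.34, Adamts10 -0.47, Adamts19 -0.052, Mmp16 -0.085, Adamts3 -0.25, Adam1a -0.26, Mmp17 -0.44, Adamts9 -0.22, Adam12 -0.068, Adam5 -0.20, Adam9 -0.23, Mmp3 -0.22, Mmp27 -0.29, Adamts7 -0.61, Adamtsl2 -0.052, Pcolce -0.031, Pcsk6 -0.47 and Rhbdf1 -0.27. Pcolce is itself among the 13 fibroblast markers that set this scaling, so its value there is not independent of it. Plain library sizes gave Timp3 -0.091, Adam19 -0.21, Adamts5 -0.023, Adamts10 -0.12, Mmp17 -0.037, Adamts7 -0.21 and Pcsk6 -0.16. With limma-voom the value was Adamts14 0.025. The replicate block gave Adamts14 0.47, Adam19 -0.078 and Adamts12 0.17. The same libraries without the block gave Adamts14 0.47, Adam19 -0.079, Adamts12 0.17 and Adam1a -0.00079. The block on all 6 libraries gave Adamts14 0.013. Upper-quartile factors gave Adam19 -0.018 and Adamts7 -0.024. Leaving out both named libraries gave Adamts14 0.30, Adamts12 0.044, Adamts10 -0.086, Mmp17 -0.0048 and Adamts7 -0.20. Over the fits with 1 library left out, ranges that cross 0 were Adam10 -0.21 to 0.039, Adam19 -0.048 to 0.16, Adam23 -0.47 to 0.022, Adamts10 -0.18 to 0.32, Adamts12 -0.20 to 0.049, Adamts14 -0.36 to 0.36, Adamts20 -0.56 to 0.21, Adamts5 -0.10 to 0.46, Adamts7 -0.17 to 0.18, Mmp27 -0.058 to 0.53, Mmp28 -0.20 to 0.086 and Pcsk6 -0.19 to 0.37.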
